A study of Mus musculus with 2 samples.

Results

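Scn4a, Clcn1, Atp1b1 and Atp1b2 encode proteins of the sarcolemma, the excitable surface membrane of the muscle fibre, that carry sodium and chloride or belong to the sodium pump. They are 4 of the 21911 protein-coding genes of the mouse annotation, and they were chosen by name for this shared place in the membrane, with earlier results of these data known. Scn4a encodes the pore of the adult skeletal muscle sodium channel, and Clcn1 the chloride channel that holds the resting fibre near its resting potential. Atp1b1 and Atp1b2 encode beta subunits of the sodium-potassium pump, which the alpha subunits need to fold and to reach the surface.

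An action potential in muscle is a wave of sodium entry through the Scn4a channel, and the Clcn1 current then damps the membrane so that a fibre does not keep firing. The pump, built of an alpha and a beta subunit and tuned by small FXYD proteins, exports the sodium that entered and takes potassium back. Inherited changes of SCN4A in people cause myotonia or periodic paralysis, and those of CLCN1 cause myotonia. These are disorders of fibre excitability.

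The assay was DNase-seq, which reads the ends left where DNase I can reach and cut DNA and so marks open chromatin. There was 1 group, the gastrocnemius (a calf muscle) of female B6CASTF1/J mice at 14 days of age, hybrids of the C57BL/6J and CAST strains. Its 2 libraries were made from different biosamples listed under the same donor, and the label of each biosample names 3 females, so animals were pooled. Whether the animals differ between the libraries is not clear from the labels, so an SD over the 2 may be partly or wholly technical. Replicate 2 has a pair of sequencing instruments in its label and replicate 1 none, so a run and a replicate cannot be told apart. The tissue was whole muscle with its nerves, vessels and connective tissue, so a weak site may be weakly open in all nuclei or open in few of them, and these cannot be told apart. Reads lie on the mm10 reference, while 1 of the parental genomes is CAST. With 2 libraries of 1 group there is no comparison between conditions and no test, and every value below is a description of these libraries.

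Replicate 1 had 87558 strict peaks and 338694 footprints, and replicate 2 had 79562 and 301069. The longer, permissive lists had 142031 peaks in replicate 1 and 133321 in replicate 2. The number of reads behind them is not stated in the sources used here. Signal is the authors' own value for each peak, with a scaling that is not stated, and its median over strict peaks was 1.53 in each library. A shared site is a region with a strict peak of both libraries. There were 68349 shared sites, of which 23647 had a midpoint no more than 1 kb from the transcription start site (TSS) of a protein-coding gene and are called promoter sites, and 44702 were distal. The 4 genes held 14 of them, 6 promoter and 8 distal, each distal one assigned to the nearest TSS within 50 kb.

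The sequences of 6 of these sites and of a promoter without any are shown here so that the motif matches described below can be read in them. All are read from mm10 on the strand of the gene, 5′ to 3′, and transcribed bases after the coding TSS are left out of the promoters. Capitals mark exact matches, on either strand and in 200 bp around the site centre, to 16 short consensus motifs of muscle, ubiquitous and core promoter factors. The Clcn1 promoter site up to its TSS is chr6:42286481-42286684 (plus strand). Its capitals are the E-box CACCTG and a MEF2 site that contains TATAAA.
Clcn1 promoter: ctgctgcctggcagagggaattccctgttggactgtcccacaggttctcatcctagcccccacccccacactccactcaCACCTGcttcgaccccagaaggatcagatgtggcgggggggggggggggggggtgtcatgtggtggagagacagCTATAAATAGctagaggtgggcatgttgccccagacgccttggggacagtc
The next is the annotated promoter of Scn4a, the 250 bases before the start in the RefSeq promoter table of GRCm38.p6, at chr11:106349391-106349640 (minus strand). It held no match to any of the 16 motifs.
Scn4a annotated promoter: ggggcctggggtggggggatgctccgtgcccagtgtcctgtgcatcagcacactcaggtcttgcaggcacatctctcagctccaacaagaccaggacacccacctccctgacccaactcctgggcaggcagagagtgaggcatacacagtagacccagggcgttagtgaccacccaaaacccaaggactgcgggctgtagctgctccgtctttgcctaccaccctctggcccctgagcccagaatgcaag
The shared sites of Scn4a that follow are the upstream one at chr11:106350981-106351160 and the intronic one at chr11:106334121-106334380 (minus strand). The E-box CAGCTG, the form MyoD and myogenin prefer, occurs in each, and the upstream site also holds CCAAT.
Scn4a upstream site: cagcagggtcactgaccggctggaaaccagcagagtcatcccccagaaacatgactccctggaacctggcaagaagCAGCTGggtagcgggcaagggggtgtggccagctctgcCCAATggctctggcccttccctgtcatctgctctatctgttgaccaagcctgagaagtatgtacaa
Scn4a intronic site: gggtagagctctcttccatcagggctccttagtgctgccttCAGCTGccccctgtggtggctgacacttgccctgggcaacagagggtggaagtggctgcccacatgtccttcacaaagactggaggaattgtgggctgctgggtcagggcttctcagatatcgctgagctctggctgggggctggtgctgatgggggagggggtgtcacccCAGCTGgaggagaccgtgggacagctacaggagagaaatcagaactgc
The pump beta subunit promoters, up to the coding TSS, are at chr1:164458356-164458520 for Atp1b1 and chr11:69605830-69606040 for Atp1b2 (both minus strand). Both carry GGGCGG boxes (the SP and KLF element, here also read as CCGCCC) and a CCAAT box (read as ATTGG), and Atp1b2 adds TATAAA.
Atp1b1 promoter: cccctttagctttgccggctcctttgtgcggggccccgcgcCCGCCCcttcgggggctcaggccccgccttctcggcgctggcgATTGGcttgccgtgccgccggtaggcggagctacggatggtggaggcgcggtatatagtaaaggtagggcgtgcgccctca
Atp1b2 promoter: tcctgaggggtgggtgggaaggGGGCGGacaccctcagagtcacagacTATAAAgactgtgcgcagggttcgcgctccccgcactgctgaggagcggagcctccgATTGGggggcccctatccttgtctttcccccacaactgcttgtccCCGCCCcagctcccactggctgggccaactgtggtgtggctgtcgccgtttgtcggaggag
The site far upstream of Atp1b1, at chr1:164493081-164493280 (minus strand), packs a CCAAT box that overlaps the first of 2 TTGGCA (NFI) matches and the AP-1 motif TGANTCA into 1 end.
Atp1b1 far site: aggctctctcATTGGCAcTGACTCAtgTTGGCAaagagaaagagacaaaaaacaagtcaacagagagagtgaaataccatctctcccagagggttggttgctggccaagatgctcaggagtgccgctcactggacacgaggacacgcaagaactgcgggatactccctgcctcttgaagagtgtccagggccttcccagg

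Of the 4 genes, 3 had a promoter site shared by both strict lists, and the same 3 had a shared one in the permissive lists. Over all protein-coding genes these shares were 63.7% and 68.1%. All 4 genes had at least 1 shared distal site, against 49.2% of all genes. With 4 genes these counts carry little weight, and the loci differed from each other. Scn4a had no promoter site within 1 kb of its annotated TSSs and 4 distal sites, and Clcn1 a modest promoter and 1 weak distal site. Atp1b1 had 3 promoter sites in a row and 2 distal sites, and Atp1b2 had 2 promoter sites and 1 distal site in its last exon.

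**Figure D1:**
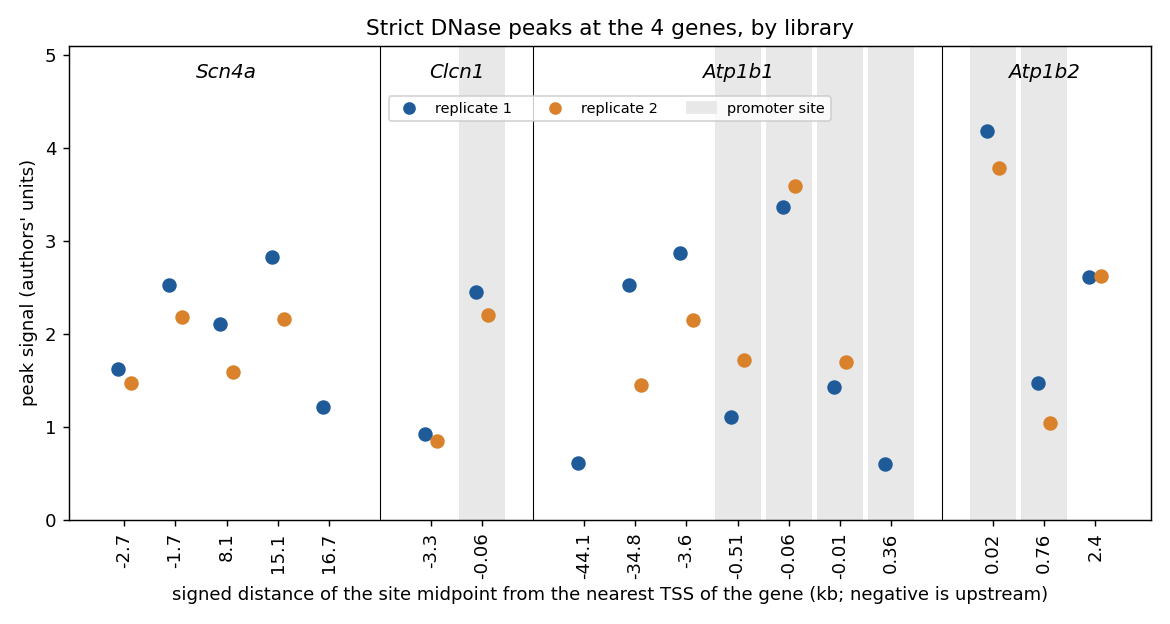
Strict peaks at Scn4a, Clcn1, Atp1b1 and Atp1b2, with the signal in each library (vertical axis, the authors' units) against the distance of the site midpoint from the nearest TSS of the gene in kb (horizontal axis, evenly spaced, negative is upstream); grey bands mark promoter sites. Scn4a has no grey band, and the highest point is the Atp1b2 promoter at 4.18 in replicate 1.

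Scn4a (ENSMUSG00000001027.7, chr11:106318592-106353288, minus strand) was the gene without a promoter site under the 1 kb rule. It has 2 annotated TSSs, that of the coding transcript at position 106349389 and that of a non-coding transcript at 106353288. No strict or permissive peak of either library had its midpoint within 1 kb of either. The deposited per-base files list the false discovery rate (FDR) of the local cut rate wherever it is below 0.05, and within 1 kb of these TSSs they list 0 bases in both libraries. That held for 27.0% of all protein-coding genes. No file of either library thus marked open chromatin at the annotated starts of Scn4a.

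Around that gap Scn4a held 4 shared distal sites, and 13.5% of all genes had as many or more. Genes with no promoter peak in any list and at least 4 shared distal sites were 0.977% of all genes, a combination looked at after these values were seen. The nearest site to the coding TSS lay 1.68 kb upstream of it, in intron 1 of the non-coding transcript. A window of 2500 bp would count this site as a promoter site, so the label distal rests on the 1 kb rule. Its signal was 2.52 in replicate 1 and 2.18 in replicate 2 (mean 2.35 ± 0.24, SD, n = 2), and 71.9% of shared distal sites were lower. It had 1 footprint in each library, at nearly the same place, with GGGGGTGTGGCCA in common. The E-box CAGCTG lay 11 bp from the site centre, near that footprint and not in it.

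Inside the gene, the site in intron 13 at 15.1 kb downstream of the coding TSS had the highest mean signal of the 4, although the upstream site was slightly higher in replicate 2. It measured 2.83 in replicate 1 and 2.16 in replicate 2 (mean 2.50 ± 0.48, SD, n = 2), above 74.4% of shared distal sites. Its smallest FDR was 2.03e-16 in replicate 1 and 7.56e-07 in replicate 2, and its 2 footprints were both in replicate 1. The site in intron 10 at 8.10 kb downstream, chr11:106341141-106341439, measured 2.11 and 1.595, above 60.4% of distal sites. It had 5 footprints in replicate 1, the most of the 4, and 2 in replicate 2, as many as the intergenic site described next. It was also the widest of the 4. Its only motif match in the central 200 bp was the ETS motif CCGGAAG, with TTGGCA farther out in the site. The intergenic site 2.70 kb upstream of the non-coding TSS measured 1.62 and 1.47, close to the median distal site, with 2 footprints in each library.

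All 4 sites were higher in replicate 1. The log2 ratio of replicate 2 over replicate 1 centred at -0.14 across the 68349 shared sites, with an SD of 0.30. After that shift was taken off, the median over the Scn4a sites was -0.16, within the SD. A further strict peak, chr11:106332608-106332800 in intron 13, was in replicate 1 alone with 1.22, and replicate 2 had it in the permissive list with 1.06. In intron 11, chr11:106338165-106338302 was a permissive peak of replicate 2 alone, with 0.931.

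The nearest-TSS rule also gave away sites that lie within Scn4a. The site at chr11:106325933-106326100 in intron 18 measured 2.01 in replicate 1 and 1.70 in replicate 2, and that at chr11:106328618-106328858 in intron 14 measured 1.71 and 1.76. Both are nearer to the TSS of Cd79b, a B cell receptor gene, than to that of Scn4a, from which they lie 23.4 and 20.7 kb. Cd79b itself had a strict promoter peak only in replicate 1 (0.629), with 0.911 in the permissive list of replicate 2. Of the 4 B lymphocyte markers, 0 had a shared strict promoter site. On the upstream side, intron 1 of the neighbour Prr29 held the strongest site of the region, at 5.81 and 4.92, and the Prr29 promoter measured 2.99 and 3.07. Which gene any of these sites serves is not measured by DNase-seq.

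**Figure D2:**
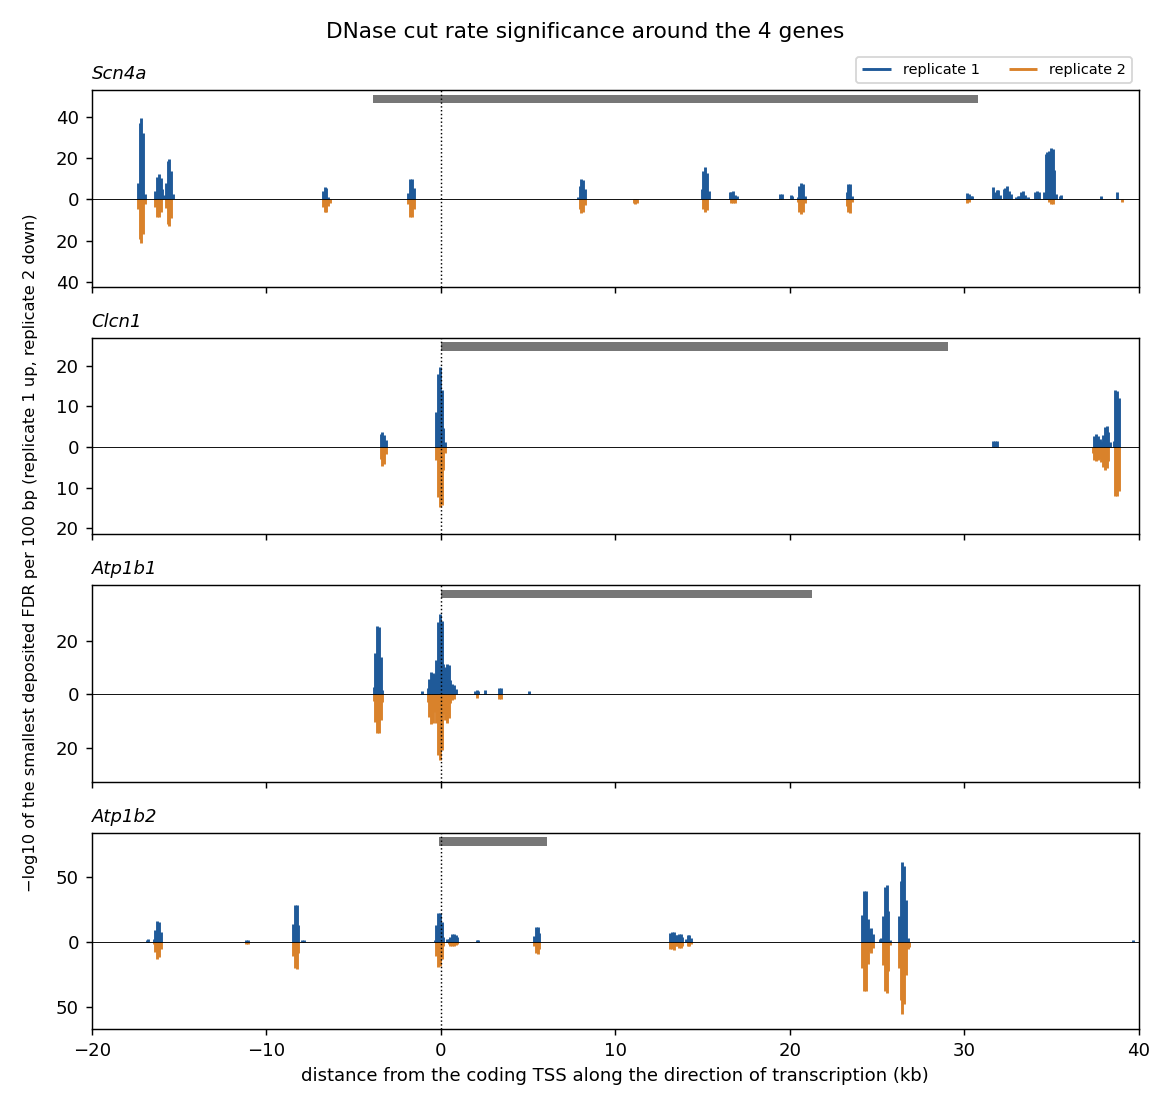
Significance of the local cut rate around each gene, as -log10 of the smallest deposited FDR per 100 bp (vertical axis, replicate 1 upward and replicate 2 downward) against the distance from the coding TSS in kb (horizontal axis); grey bars show the gene and the dotted line its coding TSS. The line stands in an empty stretch at Scn4a, with the nearest peak 1.68 kb upstream, and in a peak at Clcn1, Atp1b1 and Atp1b2.

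Clcn1 (ENSMUSG00000029862.15, chr6:42286685-42315756, plus strand) had 1 promoter site, at chr6:42286481-42286760. Its signal was 2.45 in replicate 1 and 2.20 in replicate 2 (mean 2.33 ± 0.18, SD, n = 2), so the libraries differed little. Only 17.1% of genes with a promoter peak in both libraries were lower, and the median gene had 7.60. Modest in height, the site was nevertheless far from the detection limit, with a smallest FDR of 1.64e-20 and 2.08e-15. Of the 3 open promoters it was the only one with a MEF2 match.

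Within the Clcn1 promoter the E-box CACCTG, which ZEB and E proteins bind, spans the bases 125 to 120 bp upstream of the TSS. The MEF2 match lies 51 to 42 bp upstream, and the TATAAA match, 50 to 45 bp upstream, is inside it. MEF2 matches occurred in 0.288% of shared promoter sites, and TATAAA in 2.44%, while CACCTG occurred in 2838 of the 23647, all within 200 bp around the site centre. Each library had 4 footprints in the site, and 3 of them coincided between libraries. The MEF2 and E-box letters were outside all of them. The shared footprints covered CCCACCCCCACACTC, a run of 13 G, and TAGAGGTGGGCATGTTGCCCCAGAC, which begins after the MEF2 match with 1 base between.

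Little else was open around Clcn1. Its sole shared distal site, chr6:42283284-42283427, lay 3.33 kb upstream and measured 0.926 in replicate 1 and 0.851 in replicate 2, with 17.1% of distal sites lower. No strict peak of either library lay in the rest of its 29.1 kb body. A permissive peak of replicate 1 (0.544), in a coding exon of the overlapping gene Fam131b, was also assigned to it. The promoters of the neighbours Casp2 (20.98 and 15.9) and Zyx (15.6 and 12.9) were several times stronger, so the Clcn1 site stood low between strong ones. The strongest Fam131b promoter site measured 3.33 and 2.69.

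Atp1b1 (ENSMUSG00000026576.12, chr1:164437109-164458355, minus strand) was open over the widest stretch at its start. Within 1 kb of the coding TSS, 1563 bases of replicate 1 and 1504 of replicate 2 were listed with an FDR below 0.05, against 1128 and 879 at Atp1b2 and 472 and 474 at Clcn1. The central site, chr1:164458301-164458520, measured 3.36 in replicate 1 and 3.59 in replicate 2 (mean 3.48 ± 0.16, SD, n = 2), and 25.5% of genes were lower. Just downstream, in the first exon, chr1:164457861-164458200 measured 1.43 and 1.70. Upstream, chr1:164458701-164459035 measured 1.102 and 1.72.

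All 3 Atp1b1 promoter sites were higher in replicate 2, while most shared sites were higher in replicate 1. Relative to the library median, the log2 ratio was 0.24 at the central site, 0.39 in the exon and 0.79 upstream. At the upstream site only 0.892% of shared promoter sites had a ratio as far from the centre, so the height of this flank is poorly fixed by 2 libraries. The distal sites of the same gene ran the other way, with -0.28 and -0.65. A further promoter peak, chr1:164457601-164457726, was strict in replicate 1 alone (0.601) and absent from the permissive lists.

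In the central site the CCAAT box spans 81 to 77 bp upstream of the TSS and touched a footprint of replicate 2 with 1 of its 5 bases. Another CCAAT match, just after the TSS, was inside a footprint of replicate 1 only. The GGGCGG box, 124 to 119 bp upstream, was also inside a footprint of replicate 1 only. CCAAT was present in 24.2% and GGGCGG in 54.6% of shared promoter sites, so neither is rare there. The site had 5 footprints in replicate 1 and 2 in replicate 2, and GCCGGTAGGCGGAGCTACGGA and TTCTCGGCGCT were covered in both.

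Atp1b1 also had the widest surroundings of the 4 genes, with 99.9 kb nearer to its TSSs than to those of other protein-coding genes, and both of its distal sites lay upstream. The nearer one, chr1:164461801-164462100 at 3.60 kb upstream, measured 2.88 in replicate 1 and 2.15 in replicate 2, above 74.7% of distal sites. It is within 1 kb of the TSS of Gm32391, a long non-coding RNA gene, so it may equally be counted as that gene's promoter. The other, 34.8 kb upstream, measured 2.52 and 1.46 (mean 1.99 ± 0.75, SD, n = 2), and 4.46% of distal sites had a ratio between libraries as far from the centre. Both contain the AP-1 motif TGANTCA, found in 9.86% of shared distal sites, and TTGGCA, found in 20.5%. Within 200 bp around the centre neither contains CAGCTG, though the nearer site has a match farther out. At the nearer site 2 of the 7 AP-1 letters overlapped a footprint of replicate 1, and at the farther site none did.

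Weaker Atp1b1 peaks made no shared strict site. At 44.1 kb upstream, chr1:164502401-164502557 was strict in replicate 1 (0.608) and permissive in replicate 2 (0.492). In intron 1, chr1:164454858-164454993 was permissive in both (0.438 and 0.452), and a further 2 in that intron were permissive in replicate 1 alone (0.431 and 0.480). A permissive peak of replicate 1 beside the far upstream site measured 0.360. The neighbouring Nme7 and Blzf1 share a promoter site at 15.6 and 15.1, and that of Dpt, a fibroblast matrix gene, measured 2.66 and 2.34.

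Atp1b2 (ENSMUSG00000041329.13, chr11:69599736-69605942, minus strand) encodes the beta subunit first described as an adhesion molecule on glia. Its promoter site, chr11:69605801-69606040, was the highest of the 4 genes' sites in each library. It measured 4.18 in replicate 1 and 3.78 in replicate 2 (mean 3.98 ± 0.28, SD, n = 2), and still only 28.9% of genes were lower. Another promoter site, chr11:69604902-69605236 in intron 1, was weaker at 1.47 and 1.04. Both had several footprints, 5 in each library at the first and 4 and 3 at the second.

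In the Atp1b2 promoter, motif matches lay under footprints of both libraries. Its TATAAA lies 163 to 158 bp upstream of the coding TSS at position 69605829. From the start of a non-coding transcript at 69605942, it is 50 to 45 bp upstream. Both libraries had a footprint there, with ACAGACTATAAAGACTGTGCG in common. The CCAAT box was also under a footprint of both, with CTCCGATTGGGGGGCC in common, and of the 2 GGGCGG boxes 1 was under a footprint of replicate 2 and the other overlapped one of replicate 1 in part. The TATAAA of Clcn1, at the same distance from its TSS, was in no footprint.

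The distal site of Atp1b2, chr11:69600221-69600420, lies in the 3′ UTR exon of this short gene of 6.21 kb. It measured 2.61 in replicate 1 and 2.62 in replicate 2, above 76.3% of distal sites, and contained CAGCTG outside its footprints. Its 2 values were the closest of the 14 sites before the shift between the libraries was taken off. Relative to the library median its log2 ratio was 0.14, and 62.8% of shared distal sites had a ratio as far from the centre. In the same compact region a stronger site, chr11:69614061-69614240 at 6.71 and 5.05, lies 8.32 kb upstream of the coding TSS and is assigned to Shbg, whose own promoter had only permissive peaks (0.678 and 0.625). The Trp53 promoter on the other side measured 10.1 and 8.49. A permissive peak of replicate 1 alone (0.735) lay near internal TSSs of Atp1b2.

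**Figure D3:**
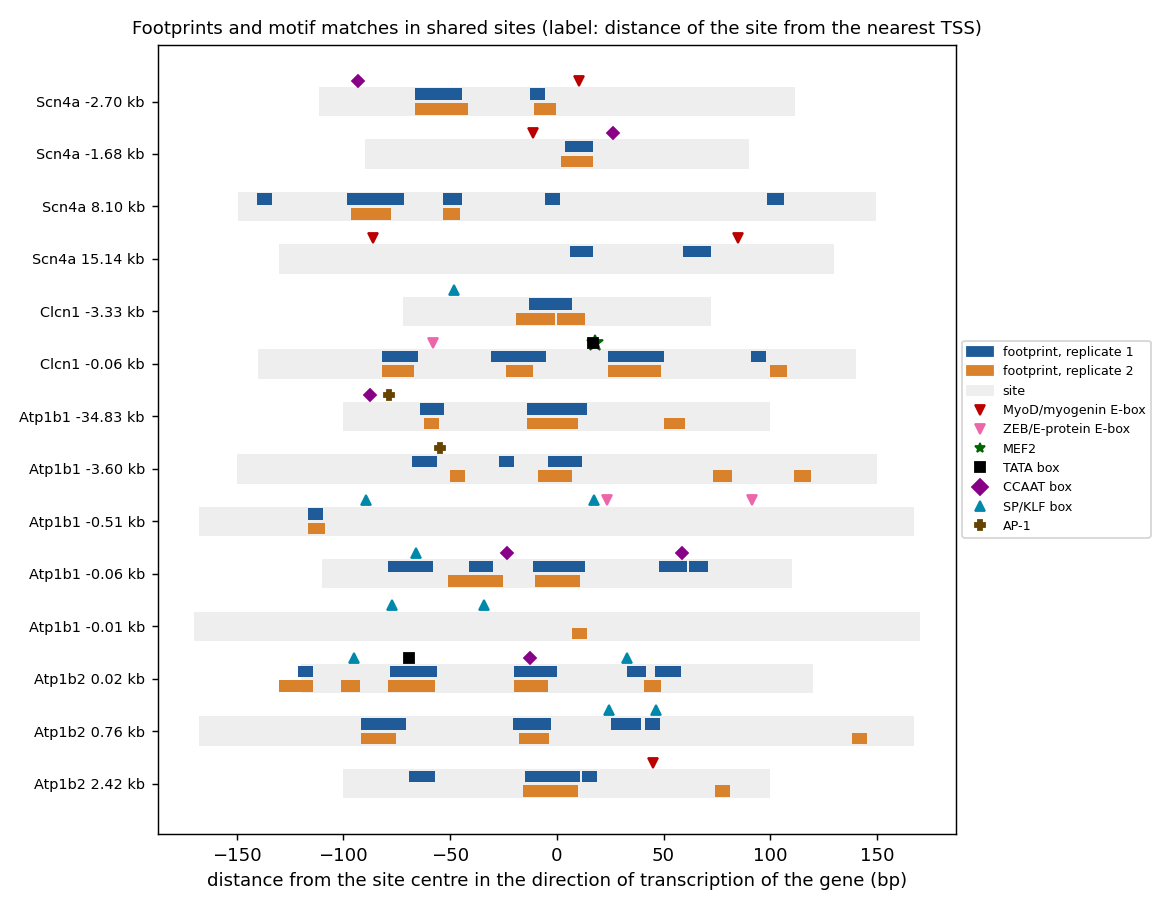
Footprints and motif matches in the 14 shared sites, named by gene and distance from the nearest TSS, with position from the site centre in bp along the direction of transcription (horizontal axis); bars are footprints of replicate 1 (upper, blue) and replicate 2 (lower, orange), grey bars the sites, and symbols above them motif matches. Footprints of both libraries overlap in 12 of the 14 sites, and the Atp1b2 promoter is the row where the TATA and CCAAT symbols stand above footprints of both.

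Among the shared sites of the 4 genes, the E-box CAGCTG occurred in distal sites and in no promoter site. It was in 3 of the 4 shared distal sites of Scn4a and in the 1 of Atp1b2, that is in 4 of 8 distal sites, against 29.4% of all shared distal sites, in 200 bp around the site centre. In 300 bp it was in 5 of 8, with the nearer Atp1b1 site added, against 34.7%. The count in promoter sites was 0 of 6 in either window, against 15.1% of all shared promoter sites in 200 bp and 20.2% in 300 bp. With 8 distal and 6 promoter sites, these counts are too few to be told apart from the shares over all sites. In the RefSeq table, CAGCTG occurred in 13.0% of promoters within 250 bases before the start, and TATAAA in 12.4%. Promoters with none of the 16 motifs, like the annotated Scn4a promoter, were 12.9% of that table. In the central 200 bp of its 4 shared sites, the matches of Scn4a lay outside footprints, while beyond that window the TTGGCA of the intron 10 site overlaps a footprint of replicate 1. A match is only a string of letters, and its absence from a window says nothing of a factor.

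Promoter heights placed the 3 open promoters in the lower part of genes with a promoter peak in both libraries, as the histogram shows. Among shared promoter sites, of which a gene may hold several, 37.4% were lower than the Clcn1 site. The share was 49.6% for the central Atp1b1 site and 53.4% for the highest Atp1b2 site. The order of the 3 genes was Atp1b2, Atp1b1 and then Clcn1 in each library. The lowest Atp1b2 value, 3.78, was above the highest Atp1b1 value, 3.59, by less than Atp1b2 itself varied between the 2 libraries. Whether these neighbours differ cannot be told from 2 libraries. Clcn1 at 2.45 and 2.20 stayed below the lowest value of both.

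**Figure D4:**
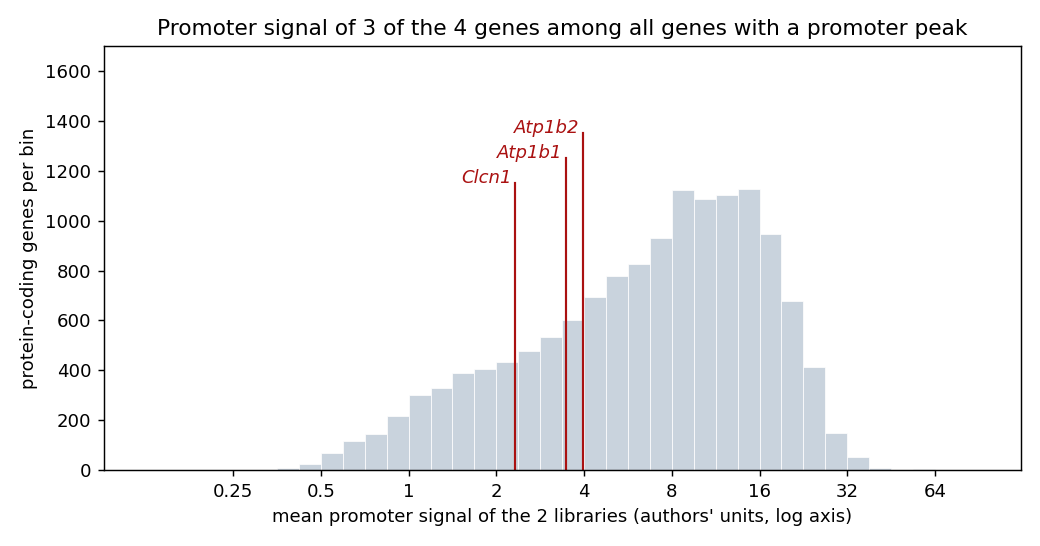
Histogram of the mean promoter signal of the 2 libraries (horizontal axis, authors' units, log scale) over protein-coding genes with a promoter peak in both (vertical axis, genes per bin), with red lines at Clcn1 (2.33), Atp1b1 (3.48) and Atp1b2 (3.98). All 3 lines stand left of the median of 7.60.

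Related genes put these values in context. Of 54 genes in 8 lists of sodium, chloride and pump genes and their anchors, 38 had a shared strict promoter site, 45 a shared permissive one and 40 at least 1 shared distal site. Without the 4 genes it was 35, 42 and 36 of 50, and the median promoter signal of those open was 4.78. Among all protein-coding genes the 3 shares were 63.7%, 68.1% and 49.2%. The counts of the single lists below are small and are to be read beside the same shares. Among 10 sodium channel alpha subunits, 4 had a shared promoter site. Scn8a, the neuronal and nodal channel, measured 1.38 in replicate 1 and 1.49 in replicate 2 and had 5 distal sites, and Scn2a measured 1.05 and 0.917. Scn10a, Scn11a and Scn1a, genes of sensory and central neurons, had no strict promoter peak. Scn10a, like Scn4a, had no promoter peak in any list, and it had 3 shared distal sites. Of the 4 neuron markers 4 had a shared strict promoter site (mean signal 0.568 to 3.94), and their part in the Scn8a values was not tested.

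Of the 4 sodium channel beta subunits, 3 had shared promoters. Scn4b measured 3.21 in replicate 1 and 3.06 in replicate 2, and Scn3b 3.26 and 2.83, while Scn2b had none. Of the 11 genes of CLC channels, exchangers and their partners, 9 had shared promoters, and Clcn1 was the lowest of them. Clcn6, Clcn4 and Clcn2, of which the first 2 encode exchangers of intracellular membranes, measured 25.5 and 21.3, 22.0 and 18.6, and 17.9 and 14.7. Clcn5 had 4 distal sites, and the kidney gene Bsnd had no promoter peak.

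Among the 4 pump beta subunits, Atp1b3 measured 22.8 in replicate 1 and 20.3 in replicate 2, several times the values of Atp1b2 and Atp1b1, and Atp1b4 had no strict promoter peak. Of 7 FXYD genes, 3 had shared promoters, led by Fxyd1 (phospholemman, the muscle and heart regulator of the pump) at 13.1 and 11.1. Fxyd5 (2.49 and 2.32) and Fxyd6 (2.02 and 2.63) were lower, Fxyd2 and Fxyd3 had 5 distal sites each, and Fxyd2, Fxyd4 and Fxyd7 had no strict promoter peak.

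All 8 genes of membrane anchors, ankyrins, spectrins and syntrophins that hold channels in place, had shared promoters. Sptbn4 (21.7 and 17.2) and Sntb2 (11.6 and 10.03) were highest, and Ank3 and Ank2 had 23 and 16 distal sites. All 6 sodium and chloride transporters did too, among them Slc12a4 (5.35 and 5.90) and Slc12a2 (4.95 and 4.61).

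By the summed absolute difference of log2 signal over the 2 libraries, among 37 other open genes of the lists, the nearest to Clcn1 was Fxyd5 (0.10), and the nearest to Atp1b1 were Scn4b (0.30) and Scn3b (0.39). This likeness is of height in 2 libraries and of nothing else. Scn4a has no promoter value to compare.

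The marker lists of cell types are set beside the 63.7% of all protein-coding genes with a shared strict promoter site. All 10 markers of muscle fibres had shared promoters, with a median signal of 5.35 and a range of 1.06 to 11.1. So did 5 of 7 Schwann cell markers (1.61 to 10.7), 5 of 6 endothelial, 4 of 5 fibro-adipogenic, 3 of 4 satellite cell and 4 of 4 pericyte and smooth muscle markers. Of 5 macrophage and 4 cardiomyocyte markers 0 had, while 4 of the 4 neuron markers did. In lists this short, such counts do not tell which cells the libraries held. Atp1b1 and Atp1b2 are used by many of these cell types, and the part of each in their signal was not tested.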

How the data were processed

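DNase-seq was measured in 2 libraries of 1 group. Per the labels, each library has its own deposited files on mm10, with no pooling of replicates. Each has 2 peak lists, of which the shorter is called strict here and the longer permissive, with footprints and per-base values. The signal of a peak was deposited as the authors give it, with no stated scaling. The deposited per-base values are p-values adjusted as false discovery rates (q-values), listed below 0.05, and footprints carry 1 level, 0.01. The sources used here do not name the aligner or the callers and give no number of reads, so the depth is unknown.

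Peaks overlapping by at least 1 bp were merged into shared sites (Python 3.11.15, pandas 2.3.3, numpy 2.4.6). TSSs were those of all transcripts of 21911 protein-coding genes in GENCODE M21. Sites whose midpoint was at most 1000 bp from a TSS were promoter sites, and a gene's promoter signal in a library was that of its strongest such peak. Other sites went to the nearest TSS within 50 kb. The site steps were tested on simulated peaks. A sequence was read from the mm10 genome (GRCm38.p6), and 3 of the 4 genes matched the RefSeq promoter table.

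The motifs were CAGCTG (MyoD and myogenin), CACCTG (ZEB and E proteins), CATTCC (TEAD), TGANTCA (AP-1), GGGCGG (SP and KLF), TTGGCA (NFI), AGGTCA (nuclear receptors), ACANNNTGT (steroid receptors), CCGGAAG (ETS), CCAAT (NFY), TATAAA (the TATA box) and the consensus motifs of MEF2, MEF3, SRF, CREB and CTCF. They were sought on both strands, as exact letters, in 200 bp around the site midpoint. A match was in a footprint when its bases overlapped one.

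The 4 genes, the 8 gene lists, the 10 marker lists and the motifs were chosen with earlier results of these data known. The text names the 4 genes with every site, their neighbours, and from each list the 3 genes highest in promoter signal, the 2 with most distal sites and up to 3 without a strict promoter peak. It also names the 2 list genes nearest to each of the 4 in promoter signal. Some genes that these rules name, and the sequence of 1 site, are not reported here. Alternatives were the permissive lists, the stronger 50% of peaks, 50% reciprocal overlap, windows of 500 and 2500 bp, limits of 20 and 100 kb, TSSs of all genes or of protein-coding transcripts only, motif windows of 300 bp and each library alone.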

Additional observations from a re-analysis of the deposited data

How the results depend on the processing

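Of the recomputed values, 94 stayed within the spread between libraries or within 1.5 times the count, and 16 did not. The promoter signals of Clcn1, Atp1b1 and Atp1b2 stayed under every alternative run on them, but these alternatives were no real trial of them. With both libraries the strongest peak at the TSS gave the same value each time. The value of 1 library alone lies within the spread of the 2 by construction. The permissive lists gave Atp1b1 4 shared distal sites in place of 2. The stronger 50% of peaks left Atp1b1 1 and Clcn1 0. A limit of 20 kb left Atp1b1 1, and TSSs of all annotated genes left it 0. For Atp1b2, 1 site became 2 with a window of 500 bp and 0 with 2500 bp. It became 3 with TSSs of protein-coding transcripts, an alternative chosen after seeing the data. With 2500 bp, 4 of the 4 genes had a shared promoter site, since the upstream site of Scn4a then counts as its promoter, and Scn4a kept 3 distal sites. The share of all genes with a shared promoter site, 63.7%, was 68.1% with permissive lists, 56.6% with the stronger 50%, 62.4% with reciprocal overlap, 61.9% and 66.4% with windows of 500 and 2500 bp, and 62.3% with protein-coding transcripts. With each library alone it was 64.8% to 65.4%. No paired analysis was possible because there is 1 group. Read depth is unknown, so a missing peak means only that none was called at this depth. The nearest TSS need not be the gene a site acts on.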
